A study of Homo sapiens with 6 samples.

Results

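The genes described here encode energy sensors of the cell. They are PRKAB2 (the beta-2 subunit of AMP-activated protein kinase, AMPK), PPARGC1A (the transcriptional coactivator PGC-1 alpha) and SIRT3 (a mitochondrial deacetylase), together with each other AMPK subunit gene found by name. The rule for members used gene names and no measured value, but the members were chosen with earlier results of these data known. PRKAB1 (beta-1) and PRKAG1 (gamma-1) were the other subunits found, which gave 5 of the 6357 loci analysed. The remaining 4 of the 7 AMPK subunit genes, PRKAA1, PRKAA2, PRKAG2 and PRKAG3, were not analysed here, so neither catalytic subunit is among the values below.

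The study asked which pathways are tied to FN3K, a kinase that removes sugars from glycated proteins, by sequencing RNA of HepG2 cells with and without the gene. HepG2 cells are an established line grown from a liver tumour. The WT group held 3 samples of HepG2 cells with FN3K intact, and the FN3K KO group held 3 samples of HepG2 cells whose FN3K gene had been disrupted with CRISPR. All were grown in Eagle's minimum essential medium with fetal bovine serum, without any other treatment or gene change on the labels, and the number of clones behind the KO samples was not given in the sources used here. The samples were plates of HepG2 cells and of KO cells made from them, so p-values set a group difference against the spread between plates. Loss of FN3K and any other difference between the WT and KO cells, such as one between clones, cannot be told apart.

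AMPK is a complex of a catalytic alpha subunit, a scaffolding beta subunit that also binds glycogen, and a gamma subunit that binds AMP, ADP and ATP. When energy is short, AMPK is phosphorylated, slows fatty acid and cholesterol synthesis and promotes catabolism. PGC-1 alpha has no DNA-binding domain of its own and is recruited by transcription factors to genes of mitochondrial biogenesis, fatty acid oxidation and, in liver, gluconeogenesis. SIRT3 removes acetyl groups from enzymes in the mitochondrial matrix with NAD+ as a cosubstrate. AMPK and the nuclear sirtuin SIRT1 are both known to modify PGC-1 alpha, and PGC-1 alpha is known to induce SIRT3.

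Values were FPKM (fragment counts divided by transcript length and by the fragments mapped in that library), so levels of different genes can be set beside each other, but the depth behind them is unknown. FN3K itself fell in the KO (log2 fold change -3.78, limma adjusted p = 1.1e-07), and every KO sample was below every WT sample. The comparison was broad: 57.7% of all loci passed an adjusted p under 0.05, 36.5% lower and 21.2% higher in the KO, and the log2 fold changes of all loci had a median of -0.14. All loci here means the 6357 with deposited values, of which 6285 had a mean of at least 1 FPKM. Shares of all loci are thus not shares of every gene. Of the hepatocyte markers, 8 of 10 were measured (ALB and APOH were not analysed here), with a summed level of 7866 to 7985 FPKM in WT and 14510 to 15740 FPKM in KO samples. Of these 8 markers, 5 were higher and 1 was lower in the KO by the test, the lower one being HNF4A (log2 fold change -0.35). The 3 of 4 cholangiocyte markers measured summed to 238.1 to 246.6 FPKM in WT and 239.8 to 259.7 FPKM in KO samples, with 1 higher and 1 lower in the KO. CD14, the 1 of 4 immune markers measured, lay between 0.446 and 2.62 FPKM in WT and between 13.1 and 16.1 FPKM in KO samples, while no fibroblast or endothelial marker was analysed. The part of these differences in the results below was not tested. In RNA from a whole culture, fewer cells expressing a gene and less of its RNA per cell cannot be told apart.

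PRKAB2 and PPARGC1A were the members that moved, so sequence upstream of their RefSeq start sites is shown first, with that of SIRT3 for contrast. The sequences are RefSeq's for GRCh38.p14, read 5′ to 3′ on the strand of the gene, and all 3 genes lie on the minus strand. In the stretch shown for PRKAB2, chr1:147172551-147172720, the capitals mark a GC box (GGGCGG). The RefSeq start of PRKAB2 lies at 147172470, so this stretch does not adjoin it. In the stretch before the distal start of PPARGC1A, chr4:24472906-24473155, the capitals mark an E-box (CACGTG) that overlaps the short form of a cyclic AMP response element (TGACG). In the 30 bases shown for SIRT3, chr11:236946-236975, they mark the reverse complement of an ETS family motif (CCGGAAG). These bases lie upstream of the RefSeq start of SIRT3 at 236931 without adjoining it, and also in an annotated exon of the neighbouring gene PSMD13.
PRKAB2: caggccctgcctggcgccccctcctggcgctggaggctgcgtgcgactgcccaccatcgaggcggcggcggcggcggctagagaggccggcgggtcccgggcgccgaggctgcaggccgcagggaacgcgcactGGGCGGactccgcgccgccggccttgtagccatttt
PPARGC1A: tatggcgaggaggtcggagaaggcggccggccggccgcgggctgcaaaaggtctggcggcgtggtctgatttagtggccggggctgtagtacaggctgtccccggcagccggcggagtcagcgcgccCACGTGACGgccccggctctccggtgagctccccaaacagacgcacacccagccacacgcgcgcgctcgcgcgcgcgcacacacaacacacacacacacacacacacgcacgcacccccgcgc
SIRT3: actcaCTTCCGGcgccgagcggcgcggggc

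The motifs were searched by their letters on both strands, in windows from 250 bases before to 50 bases after each of 35116 RefSeq start sites, and CACGTG and TGACG may overlap. The PRKAB2 window was GC-rich (77.1% in the stretch shown) and was the only member window that held a CCAAT box (CCAAT), which 34.6% of all windows hold. The E-box, which 7.26% of all windows hold, was found in the distal PPARGC1A window and in no other member window. The TGACG element, at 24.6% of all windows, was found in the distal PPARGC1A window and that of PRKAG1. The ETS letters, at 10.3% of all windows, were found for SIRT3, PRKAG1 and PRKAB1 and not for PRKAB2 or PPARGC1A, and the GC box, at 45.0%, for PRKAB2, distal PPARGC1A, SIRT3 and PRKAG1. A second RefSeq start of PPARGC1A at position 23881101 held none of the 5 motifs. In the windows searched, PRKAB2 and PPARGC1A, the members that fell, thus had only the GC box in common, which SIRT3 and PRKAG1 held too. The windows include bases that are not shown. The CCAAT box of PRKAB2 and the GC boxes of distal PPARGC1A and SIRT3 were not found in the stretches shown. The distal start of PPARGC1A, at 24472905, lies outside the gene as GENCODE annotates it, which reaches 23904089. No window was searched at 23890077, where the transcript that carries the PPARGC1A locus begins, or at 236343, where that of SIRT3 begins. These matches are letters in a window and were not measured as binding sites.

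PRKAB2 (GRCh38, GENCODE version 29, chromosome 1 from 147155106 to 147172550, minus strand) was the AMPK subunit that changed. In the order of replicates 1 to 3, which is kept throughout, it had 18.5, 22.0 and 19.6 FPKM in the WT samples and 7.66, 7.72 and 6.51 FPKM in the KO samples. All 3 KO samples were low and all 3 WT samples high, with a wide gap between the groups. The means were 20.1 ± 1.82 FPKM in WT and 7.30 ± 0.682 FPKM in KO (SD, n = 3 each), so that the KO held 36.4% of the WT level. On the log2(FPKM + 1) scale used for all tests, which understates changes of weakly expressed genes, PRKAB2 fell by 1.34 (standard error 0.09, 95% interval -1.56 to -1.13, limma adjusted p = 7.1e-06). Among all 6357 loci, 75 had a lower log2 fold change. The groups did not overlap for 63.4% of all loci (39.8% lower and 23.6% higher in the KO), and the exact permutation test over samples gave p = 0.1, the smallest that 3 samples against 3 allow.

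PRKAB1, on chromosome 12 from 119667753 to 119681630, encodes the other beta subunit and competes for the same place in the complex. It had 10.5, 11.5 and 11.1 FPKM in the WT replicates and 12.1, 11.5 and 12.1 FPKM in the KO replicates. The lowest KO sample lay within the WT range, so the groups overlapped. The difference was 0.10 on the log2 scale (standard error 0.07, 95% interval -0.07 to 0.27, limma adjusted p = 0.27). An increase or decrease of the size seen for PRKAB2 lies outside this interval.

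The beta subunit genes therefore changed rank between the groups. PRKAB2 was above PRKAB1 in each WT sample and below it in each KO sample. Of the summed FPKM of both genes, PRKAB2 took 63.7%, 65.7% and 64.0% in the WT replicates and 38.8%, 40.1% and 35.0% in the KO replicates. The mean share was 64.5% ± 1.05 in WT and 38.0% ± 2.65 in KO (SD, n = 3 each), a difference of -26.5 percentage points (exact permutation test, two-sided, p = 0.1, the smallest possible). The sum of both genes was 31.1 ± 2.31 FPKM in WT and 19.2 ± 0.579 FPKM in KO, a difference of -11.9 FPKM that was also at p = 0.1 in the exact permutation test. Tested as a difference between the paralogs, log2(PRKAB2 + 1) minus log2(PRKAB1 + 1) was 0.76, 0.88 and 0.78 in WT and -0.60, -0.52 and -0.80 in KO samples. The sign of that difference turned in all 3 KO samples, a change of -1.44 (exact permutation p = 0.1). The paralogs can be told apart by sequence: none of the 5368 windows of 50 bases in the PRKAB2 transcript occurs in a PRKAB1 transcript. Of the 2561 such windows in the PRKAB1 transcript, 88 (3.44%) occur in AC002070.1, a gene annotated over the same place. The part of AC002070.1 in the PRKAB1 values was not tested. These are RNA levels, and protein was not measured here.

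**Figure D1:**
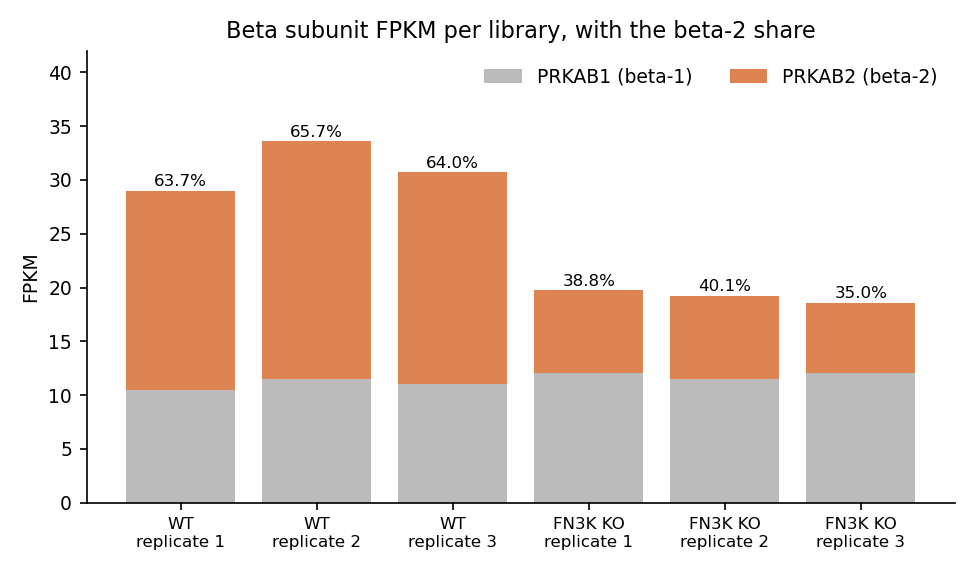
FPKM of PRKAB1 (grey) and PRKAB2 (orange) stacked for each of the 3 WT and 3 FN3K KO samples, with the PRKAB2 share of the sum printed above each bar. The grey part is of like height in all 6 samples, while the orange part and its share are smaller in the KO, 35.0% to 40.1% against 63.7% to 65.7% in WT.

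PRKAG1 (chromosome 12 from 49002274 to 49018825, minus strand) encodes the gamma-1 subunit, which senses adenine nucleotides. It was weakly listed and uneven, with 2.65, 1.62 and 0.0224 FPKM in the WT replicates and 0.0402, 0.213 and 1.14 FPKM in the KO replicates. Each group held a sample near 0 and a sample above 1 FPKM, and the groups overlapped. The highest WT value was 118 times the lowest, and the within-group SD of PRKAG1 lay at percentile 98.1 of all loci. The log2 difference of -0.62 (standard error 0.60, 95% interval -1.97 to 0.74, limma adjusted p = 0.39) thus leaves both a fall and a rise within its interval. It was -1.14 with a pseudocount of 0.1 and -1.69 in the library-term fit described with SIRT3, and passed the test in neither. PRKAG1 shares its place with an antisense gene, DDN-AS1, listed as RP11-386G11.5, and 47 of 1650 windows of 50 bases (2.85%) in its transcript occur in that gene too. The antisense locus was at 2.85 FPKM in WT and 1.21 FPKM in KO and fell by 0.79 on the log2 scale (limma adjusted p = 0.026). The strand of the libraries was not given in the sources used here, so reads of PRKAG1 and DDN-AS1 from the shared bases cannot be told apart.

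PPARGC1A (chromosome 4 from 23755041 to 23904089, minus strand) had 8.05, 9.08 and 8.79 FPKM in the WT replicates and 2.75, 3.04 and 2.67 FPKM in the KO replicates. The 3 WT samples lay close together and far above the 3 KO samples. The KO mean was 32.7% of the WT mean (2.82 ± 0.191 against 8.64 ± 0.530 FPKM, SD, n = 3 each). PPARGC1A fell by 1.33 on the log2 scale (standard error 0.12, 95% interval -1.60 to -1.07, limma adjusted p = 2.5e-05), and 77 of 6357 loci had a lower log2 fold change. Its fold change in FPKM was close to that of PRKAB2, from a level that was lower in every sample. Its within-group spread was at percentile 25.3 of all loci, and that of PRKAB2 at percentile 54.6. The locus carries the transcript from 23792021 to 23890077, with 13 exons, which begins at neither of the RefSeq starts described above, so the values do not show which start was used. None of the 6269 windows of 50 bases in this transcript occurs in another gene.

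SIRT3 (chromosome 11 from 215458 to 236931, minus strand) showed no such separation. It had 0.380, 2.85 and 3.01 FPKM in the WT replicates and 1.90, 4.16 and 1.66 FPKM in the KO replicates. WT replicate 1 was the lowest of all samples and KO replicate 2 the highest, so each group reached past the other at one end. The other two samples of WT lay above the other two of KO. The spread within a group, with a ratio of highest to lowest of 7.93 in WT and 2.50 in KO, was at percentile 97.3 of all loci, so the 95% interval of the log2 difference ran from -0.72 to 1.32 (limma adjusted p = 0.59). A doubling and a decrease both lie within it. Without WT replicate 1 the log2 difference was -0.20, and with each other sample left out it ran from 0.00 (without KO replicate 2) to 0.57. In an ordinary linear model with the library term of Ballgown (the sum of a library's log2 values below its 75th percentile), the log2 difference was 1.69 (adjusted p = 0.056). This fit, called the library-term fit from here on, also lacks the spread that limma pools over loci, and it called 1127 of 6357 loci where limma called 3670. The library term was 15316 in WT replicate 1 and 15628 and 15764 in the other WT samples, and it was 15342 in KO replicate 2 and 15081 and 15138 in the other KO samples. WT replicate 1 was thus the lowest of its group in both SIRT3 and the term, and KO replicate 2 the highest of its group in both, and the part of the term in the SIRT3 values was not tested.

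The locus listed as SIRT3 is named by a transcript of 7 exons and 1588 bases that GENCODE classes as a target of nonsense-mediated decay, not by a coding transcript. SIRT3 lies head to head with PSMD13, a gene of the 26S proteasome: the annotated genes overlap by 386 bases, and 44 bases lie between their RefSeq starts. PSMD13 had 25.5, 26.5 and 29.4 FPKM in WT and 34.0, 31.1 and 33.6 FPKM in KO samples. It rose by a log2 fold change of 0.27 (limma adjusted p = 0.0097), though not in the library-term fit (0.33, adjusted p = 0.17). SIRT3 amounted to 1.49%, 10.7% and 10.2% of the PSMD13 level in WT and to 5.58%, 13.4% and 4.94% in KO samples, so its variation between samples was not shared by its partner. None of the 1539 windows of 50 bases in the SIRT3 transcript occurs in a PSMD13 transcript. With the strand of the libraries not given, reads from the 386 bases that both genes cover cannot be told apart. The transcript that names the SIRT3 locus begins at 236343, outside those bases, which start at 236546. Whether other transcripts of the locus reach them was not tested.

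**Figure D2:**
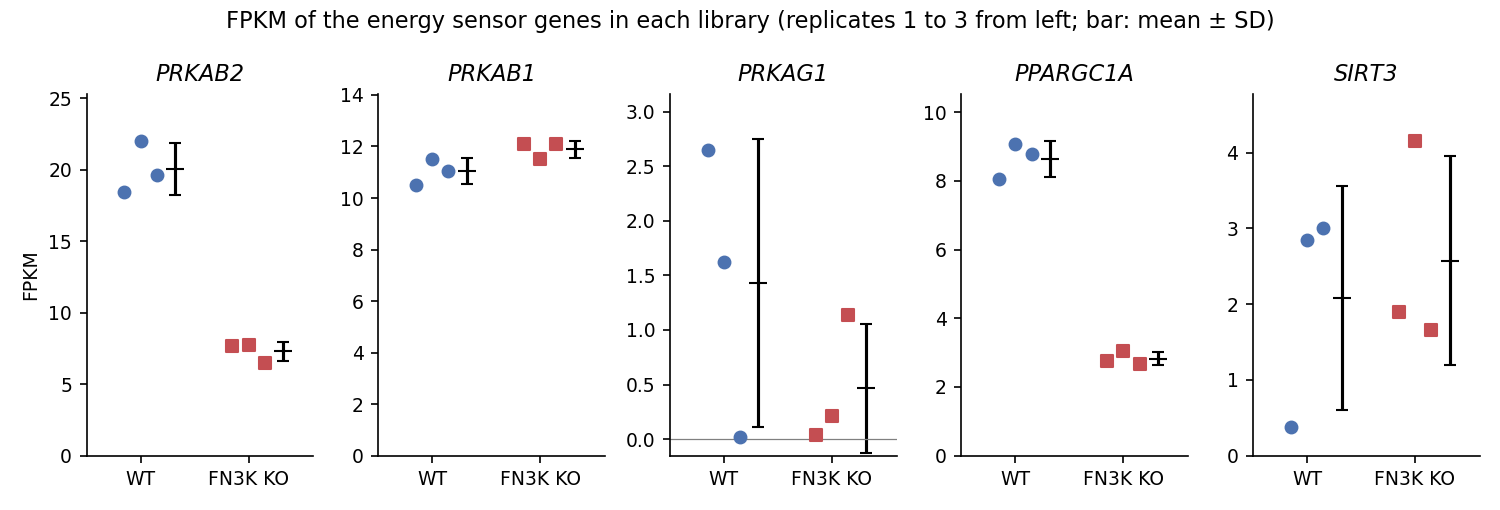
FPKM of each of the 5 genes in each sample, with WT as circles, FN3K KO as squares, replicates 1 to 3 from left to right and the bars giving mean ± SD (n = 3 each). PRKAB2 and PPARGC1A separate into a high WT and a low KO group, whereas PRKAB1, PRKAG1 and SIRT3 overlap, and the y axes differ between genes.

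Ordered by level, WT samples ran from PRKAB2 (20.1 FPKM) through PRKAB1 (11.0 FPKM), PPARGC1A (8.64 FPKM) and SIRT3 (2.08 FPKM) to PRKAG1 (1.43 FPKM). In KO samples the order was PRKAB1 (11.9 FPKM), PRKAB2 (7.30 FPKM), PPARGC1A (2.82 FPKM), SIRT3 (2.57 FPKM) and PRKAG1 (0.464 FPKM). The ranges of PPARGC1A and SIRT3 did not overlap in WT but did in KO, where the highest SIRT3 sample exceeded every PPARGC1A sample. SIRT3 and PRKAG1 overlapped in WT and did not in KO. These are ranks of the loci as listed. The SIRT3 locus is named by a nonsense-mediated decay transcript, and PRKAG1 shares bases with DDN-AS1. How much of each gene's RNA these values hold was not tested. The calls on PRKAB2 and PPARGC1A were kept in all 12 alternatives to the processing, where the log2 fold change ranged from -1.45 to -1.23 for PRKAB2 (adjusted p at most 0.038) and from -1.58 to -1.2 for PPARGC1A (adjusted p at most 0.014). PRKAB1 and PRKAG1 passed the test under none of theirs.

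**Figure D3:**
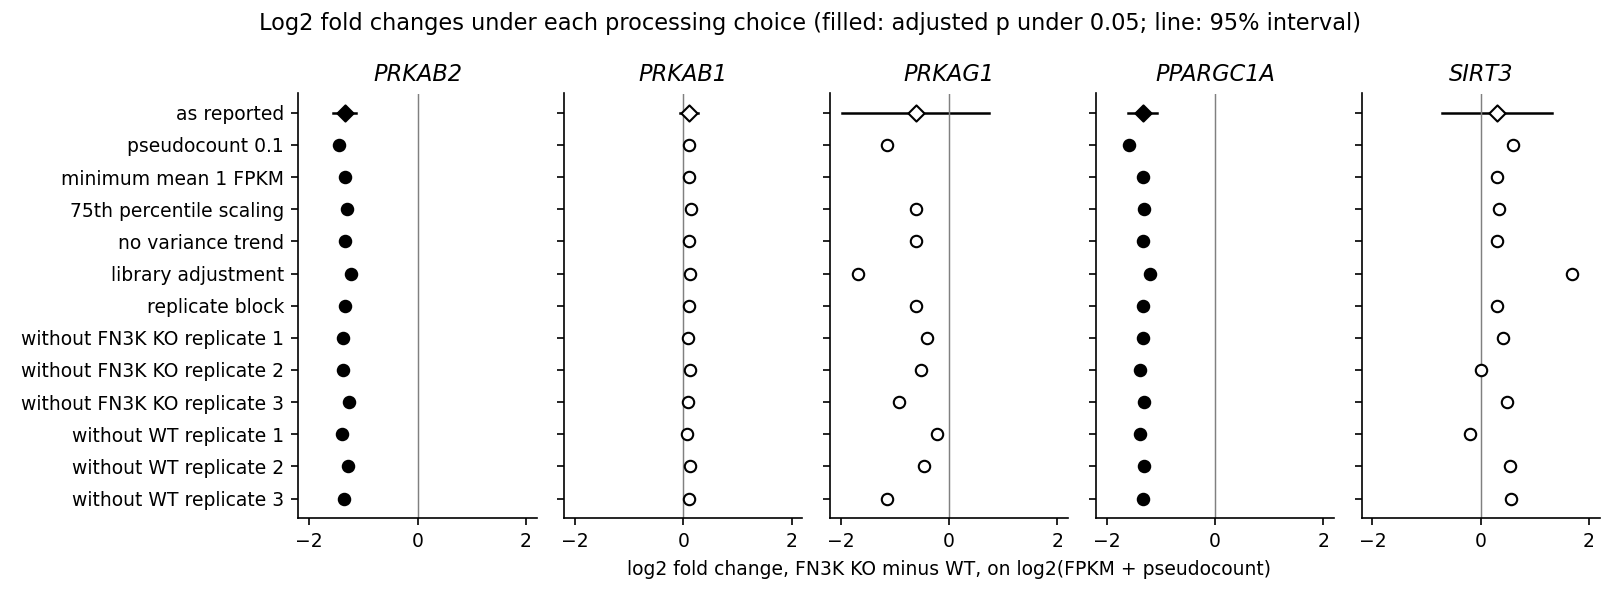
Log2 fold change (x axis, FN3K KO minus WT) of each of the 5 genes under the reported fit (diamond, with its 95% interval as a line) and under each alternative (circles), filled where the adjusted p was under 0.05. PRKAB2 and PPARGC1A are filled and left of 0 throughout, PRKAG1 is left of 0 and unfilled, and SIRT3 runs from -0.20 to 1.69 without a filled point.

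The loci whose pattern over the 6 samples was most like a member's were found by Pearson's r of log2(FPKM + 1) among 4895 named loci with a mean of at least 1 FPKM. These are descriptions over 6 points that fall into 2 groups. For PRKAB2 they were ATMIN (a zinc finger protein of the DNA damage response, r = 0.9985), L3MBTL4 (r = 0.9984) and RPL10A (a protein of the large ribosomal subunit, r = 0.9984), and 125 loci exceeded 0.99. For PPARGC1A they were COLCA2, COLGALT2 (a collagen galactosyltransferase) and RPL10 (a ribosomal protein), each at r = 0.9997, and 195 loci exceeded 0.99. All 6 of these loci fell in the KO, which follows from their choice by r with genes that fell. Their log2 fold changes ran from -1.62 for COLGALT2 to -0.52 for ATMIN. For SIRT3 they were CCDC167 (r = 0.9935), PHF20 (r = 0.9927) and NDUFA2 (a subunit of respiratory complex I, r = 0.9846), and only 2 loci exceeded 0.99. NDUFA2 had 20.3, 29.1 and 28.2 FPKM in WT and 25.0, 32.9 and 25.3 FPKM in KO samples. Like SIRT3, it was lowest in WT replicate 1 and highest in KO replicate 2, and none of the 3 passed the test between groups (log2 differences of 0.08 to 0.10).

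The nearest analysed genes along the chromosome had log2 differences of both signs. PRKAB2 lay between TXNIP, 1160 kb away, which rose by a log2 fold change of 2.25 (adjusted p = 4.9e-05), and GPR89B, 756 kb away, at -0.45 (adjusted p = 0.12). PPARGC1A lay between ADGRA3, which fell by 0.50 (adjusted p = 0.0013), and DHX15 at -0.17 (adjusted p = 0.077). PRKAB1 lay between RPS2P5, a ribosomal protein pseudogene that fell by 0.89, and RAB35, which fell by 0.28. Next to PRKAG1, FKBP11 (0.18) and TUBA1B (0.76) rose, and next to SIRT3, IFITM3 was at 0.12 (adjusted p = 0.068), all by limma.

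The genes that act on AMPK were described as a list, of which 4 of 14 were measured. STRADB, a pseudokinase that activates LKB1, rose (log2 fold change 0.84, adjusted p = 1.7e-04), from a mean of 12.0 FPKM in WT to 22.1 FPKM in KO. STK11, which encodes LKB1, the main kinase that activates AMPK in liver, fell by 0.48 (adjusted p = 6.8e-04), and SESN2, a stress-induced leucine sensor, fell by 0.61 (adjusted p = 0.002). The scaffold gene CAB39 was at -0.13 (adjusted p = 0.22), and the median was -0.30 against -0.14 over all loci. The library-term fit called 1127 of all 6357 loci and none of these 4. Its log2 differences were 1.00 for STRADB (adjusted p = 0.063), -0.44 for STK11 (adjusted p = 0.11) and -0.33 for SESN2 (adjusted p = 0.25). Of the other kinases that LKB1 activates, 6 of 12 were measured: MARK4 (-1.04, adjusted p = 3.5e-05) and SIK2 (-0.48, adjusted p = 0.011) fell, MARK2 (0.46, adjusted p = 0.021) and SIK1 (0.45, adjusted p = 0.012) rose, and 2 did not pass. The share called was 66.7%, against 57.7% of all loci. In the library-term fit only SIK1 passed (0.70, adjusted p = 0.02), while MARK4 was at -1.03 (adjusted p = 0.051), SIK2 at -0.58 (adjusted p = 0.058) and MARK2 at 0.59 (adjusted p = 0.13).

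Among genes of AMPK substrates, 16 of 29 were measured, of which 4 rose, 4 fell and 8 did not pass, so that 8 of 16 were called against 57.7% of all loci. SREBF2, the transcription factor of cholesterol synthesis genes, rose from 28.1 to 51.5 FPKM (log2 fold change 0.85, adjusted p = 5.5e-06). TXNIP, which restrains glucose uptake, rose from 0.429 to 5.82 FPKM (2.25, and 3.48 with a pseudocount of 0.1). PPARGC1A is itself in this list and had its lowest log2 fold change, followed by HDAC5 (-0.41, adjusted p = 0.0053), a histone deacetylase, and TBC1D4 (-0.36, adjusted p = 0.0083), a regulator of glucose transporter traffic. The median was -0.05. In the library-term fit, which called 1127 of all 6357 loci, 3 rose and 1 fell.

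Of 23 genes for the PGC-1 coactivators and their partners, 14 were measured, of which 9 fell, 1 rose and 4 did not pass, with a median of -0.48 against -0.14 over all loci. The share called was 71.4% against 57.7% of all loci, of which 36.5% were called lower and 21.2% higher, and the list was not tested as a set. PPRC1, a relative of PPARGC1A, had 12.1, 11.4 and 12.5 FPKM in WT and 8.81, 9.01 and 8.52 FPKM in KO samples and fell by 0.41 (adjusted p = 0.0019). That is a smaller fall than that of PPARGC1A, the lowest of the list, and the difference between them was not tested. PRMT1, an arginine methyltransferase that modifies PGC-1 alpha, fell from 71.8 to 46.5 FPKM (-0.62, adjusted p = 4.7e-05). FOXO1, a transcription factor of gluconeogenesis that PGC-1 alpha coactivates, fell by 0.59 (adjusted p = 0.035). PPARD, a nuclear receptor of fatty acid oxidation, rose by a log2 fold change of 0.47 (adjusted p = 0.0099). PPARGC1A is one of the 9 that fell. In the library-term fit, which called 1127 of all 6357 loci, only PPARGC1A and PRMT1 passed.

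Genes that PGC-1 alpha is known to induce moved in both directions. Of 26, 15 were measured, of which 4 rose, 3 fell and 8 did not pass. SIRT3 is itself in this list, among the 8 that did not pass. The share called was 46.7% against 57.7% of all loci, and the median was 0.02 against -0.14. PCK1, the gluconeogenic enzyme, rose by a log2 fold change of 1.2 (adjusted p = 3.6e-05) from a mean of 3.64 FPKM in WT to 9.69 FPKM in KO, with no overlap between the groups. The antioxidant enzyme genes SOD2 (0.92, adjusted p = 6.8e-06) and PRDX5 (0.70, adjusted p = 1.7e-04) rose as well. IDH3A, a subunit of a citric acid cycle enzyme (-0.67, adjusted p = 8.6e-04), TFB2M, a mitochondrial transcription factor (-0.37, adjusted p = 0.0016), and POLRMT, the mitochondrial RNA polymerase (-0.24, adjusted p = 0.049), fell. The call on POLRMT held in only 3 of 13 fits, the reported one included. TFAM, which packages and transcribes mitochondrial DNA, was at -0.09 (95% interval -0.36 to 0.19, adjusted p = 0.56). In the library-term fit, which called 1127 of all 6357 loci, 4 rose and 1 fell.

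Of the 7 sirtuin genes, 4 were measured, of which 1 rose, 1 fell and 2 did not pass, beside 57.7% of all loci called. SIRT1, the nuclear deacetylase that acts on PGC-1 alpha, had 7.01, 7.19 and 7.24 FPKM in WT and 4.43, 5.11 and 3.87 FPKM in KO samples. All KO samples were below the WT samples, and SIRT1 fell by 0.58 (adjusted p = 0.0032). SIRT1 was also counted among the PGC-1 partners above. SIRT2, a mainly cytosolic deacetylase, rose from 9.14 to 12.3 FPKM (0.39, adjusted p = 0.017), though not with WT replicate 3, KO replicate 2 or KO replicate 3 left out, when 1 sirtuin was called. SIRT6, a nuclear deacylase, was at -0.22 (95% interval -0.74 to 0.30, adjusted p = 0.43). SIRT3, whose locus is named by a nonsense-mediated decay transcript, was the lowest of the 4 in mean level in both groups. No sirtuin passed in the library-term fit, which called 1127 of all 6357 loci.

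Of 17 genes whose mitochondrial proteins SIRT3 deacetylates, 10 were measured. In this list 5 rose, 2 fell and 3 did not pass. Over all loci 21.2% were called higher and 36.5% lower, and the median was 0.17 in the list against -0.14. SOD2, the mitochondrial superoxide dismutase also counted above, and GLUD1, glutamate dehydrogenase (0.41, adjusted p = 4.7e-04), rose. SHMT2, the serine hydroxymethyltransferase of mitochondria (-0.63, adjusted p = 5.6e-05), and MRPL10, a protein of the mitochondrial ribosome (-0.55, adjusted p = 7.3e-05), fell. SIRT3 itself did not pass the test. In the library-term fit, which called 1127 of all 6357 loci, 2 of the 10 rose and 1 fell.

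**Figure D4:**
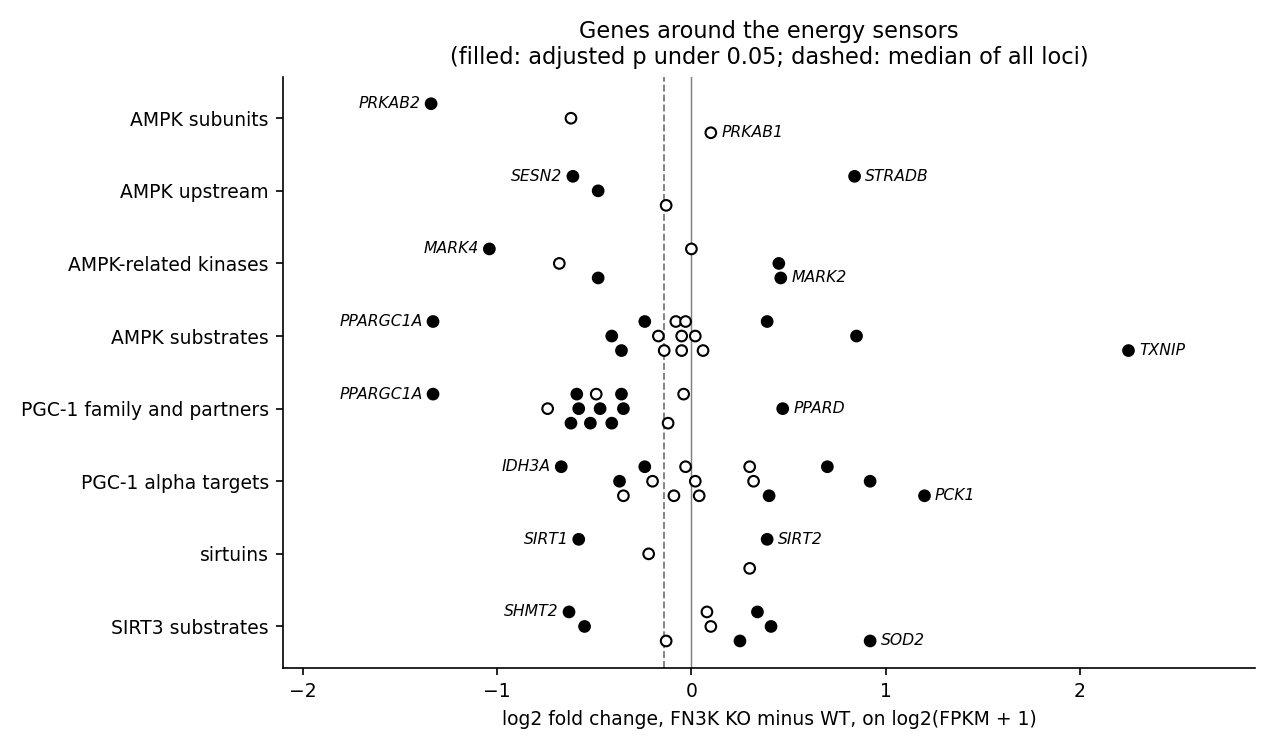
Log2 fold change (x axis, FN3K KO minus WT, on log2(FPKM + 1)) of the genes reported here from 8 lists, filled where the limma adjusted p was under 0.05, with the dashed line at the median of all loci (-0.14). PRKAB2 and PPARGC1A are the lowest points of their lists, the PGC-1 family and partners lie mostly left of the dashed line, and the PGC-1 alpha targets and SIRT3 substrates lie on both sides of it.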

How the data were processed

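RNA of 3 WT and 3 FN3K KO samples of HepG2 cells was analysed, grouped by the genotype on the labels. The authors captured mRNA with oligo(dT) beads per the labels (the text of the study speaks of total RNA), mapped reads with HISAT2 to GRCh38.p5 and quantified assembled transcripts with StringTie 2.0.6 per the submitters' processing notes, and deposited FPKM values per locus. No read counts are held in them, so no interval from depth was computed. Of 6357 loci, 4926 carried a gene name.

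WT and KO were compared at every locus on log2(FPKM + 1) by limma 3.58.1 under R 4.3.3, using lmFit and a trended eBayes, with Benjamini-Hochberg adjustment over all loci. "Called" means an adjusted p under 0.05. The shares and differences of the beta subunits were compared with a two-sided exact permutation test over samples. The steps were tested on simulated data. In the alternatives the pseudocount was 0.1, loci with a mean below 1 FPKM were dropped, libraries were scaled to the same 75th percentile, the variance trend was left off, Ballgown's library term entered an ordinary linear model, the replicate number was a block, or a single library was left out.

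Genes named are all members, FN3K, overlapping and nearest loci, the 3 loci with the highest r to PRKAB2, PPARGC1A and SIRT3, the 3 highest and 3 lowest called log2 fold changes of each list with a mean of at least 1 FPKM, and paralogs. A few others under this rule are counted but not named or plotted. CAB39, TFAM and the markers were named after their values were seen. The members and lists were chosen with earlier results of these data known. Coordinates came from GENCODE version 29 (GRCh38) through transcript identifiers, and sequences from RefSeq for GRCh38.p14, where all 5 members had a window. Tables and plots were made with pandas 2.3.3, scipy 1.17.1, numpy 2.4.6 and matplotlib 3.10.9 in Python 3.11.15.

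The replicate numbers did not pair the samples: deviations from the group means correlated at 0.0096, 0.0061 and 0.0458 for samples of the same number.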

Additional observations from a re-analysis of the deposited data

How the results depend on the processing

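The calls on PRKAB2, PPARGC1A and FN3K held in all 12 alternatives, and PRKAB1 and PRKAG1 were called in none. PRKAG1 had no value under the minimum mean of 1 FPKM. With each library left out in turn, log2 fold changes ranged from -1.40 to -1.27 for PRKAB2, from -1.38 to -1.30 for PPARGC1A, from -1.15 to -0.23 for PRKAG1 and from -0.20 to 0.57 for SIRT3, whose sign turned without WT replicate 1. The beta-2 share differed by -27.6 to -25.0 points and the paralog difference by -1.5 to -1.36 in these fits, and 1 to 2 sirtuins were called. The calls on MARK2, FOXO1, SIRT2, POLRMT, RAB35, FKBP11 and the DDN-AS1 locus were each lost with at least 1 library left out, with a limma adjusted p of up to 0.15 for POLRMT. Of 13 fits, the reported one included, POLRMT was called in 3, FOXO1 in 8, SIRT2 in 9 and MARK2 in 10. The ordinary linear model with Ballgown's library term, which adds the term and drops limma's pooled spread together, differed most: 1127 loci were called in place of 3670, 53.8% of them higher in the KO in place of 36.7%, and the called members were 0 for AMPK upstream genes, 1 for AMPK-related kinases, 4 for AMPK substrates, 2 for PGC-1 family and partners, 0 for sirtuins and 3 for SIRT3 substrates. PSMD13 was then at 0.33 and no longer called. The cause was not tested. That model moved the median of all loci from -0.14 to -0.05, and scaling to the 75th percentile moved it to -0.10. With the replicate number as a block, 3707 loci were called and no call on a member changed (PRKAB2 adjusted p = 4.5e-06, PPARGC1A 5.4e-05, SIRT3 0.48). The samples share only a number, so this is no paired design. Depth is unknown, which limits PRKAG1 and SIRT3, where a low FPKM may rest on few reads.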
